A study of Zea mays with 18 samples.

Results

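Gene expression in maize endosperm at 4 days after pollination (DAP) was compared with that at 2 DAP. The 6 libraries, 3 of 4 DAP endosperm and 3 of 2 DAP endosperm, belong to a series of 18 that also covers the unfertilized stage labelled 0 DAP (the central cell, from which the endosperm arises), endosperm of 1 and 3 DAP and embryos of 4 DAP. Both stages came from self-pollinated ears of untreated greenhouse plants of the inbred line B73. Each library pooled laser-captured sections of several kernels of 1 ear, so that p-values measure the spread between these pools. Of 38300 genes in the deposited table, the 25784 with at least 1 CPM (read counts scaled to library depth by the authors) in at least 3 of the 6 libraries were tested. Stages were compared on the scale log2(CPM + 1), and a gene is called, and said to have risen or fallen, at an adjusted p below 0.05. A log2 change is 4 DAP minus 2 DAP, and on this scale it understates the change of genes near or below 1 CPM. The 3 values given for a stage are those of replicates 1, 2 and 3. CPM is not per gene length, so that levels are compared between libraries and not between genes. Values of the other groups, including 3 DAP, are given as descriptions with no test.

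Cereal endosperm begins as a syncytium in which nuclei divide without cell walls, after which it becomes cellular and its cell types appear. The basal transfer layer takes up sugars and amino acids from maternal tissue, the embryo-surrounding region lines the young embryo, the aleurone forms the outer layer, and the starchy endosperm stores starch and protein. Each of these types is known for its own set of genes, many of which encode small secreted peptides.

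The recovered read totals were 99184532, 67350539 and 76289746 at 4 DAP, against 124078873, 81035626 and 109432029 at 2 DAP. A count of 3 reads, used here as the floor for a gene with none, equals 0.0347 CPM at 4 DAP and 0.0352 CPM at 2 DAP when averaged over the libraries of a stage. The RNA was amplified before sequencing, and floors cover counting error only. The totals of the deposited values differed between the stages, at 870772 to 946658 at 4 DAP, against 1156765 to 1241738 at 2 DAP. Per the labels, RNA of 0 to 2 DAP and of the embryo was quantified by the height of an 18S rRNA band and that of the other stages was not, and this difference cannot be told apart from the stage. Some embryo markers were near 0 in both stages. The 5 genes lec1, vp1, wox9A, wox9B and wox9C together gave 0.0993 to 0.731 CPM at 4 DAP. They gave 0 to 0.0573 CPM at 2 DAP and 55.2 to 111 CPM in the embryo libraries. The list of 18 embryo regulators was not near 0. It summed to 113 to 145 CPM at 4 DAP, 114 to 155 CPM at 2 DAP and 173 to 314 CPM in the embryo libraries. The embryo sac genes es1, es2 and es4 summed to 0 to 0.184 CPM at 4 DAP and to 0.0287 to 0.143 CPM at 2 DAP, with 181 to 474 CPM at 0 DAP. The embryo sac list of 7 genes, which includes EBE-1 and EBE-2, summed to 115 to 276 CPM at 4 DAP. At 2 DAP that list summed to 636 to 1320 CPM. In such bulk samples, fewer cells of a type and less RNA per cell cannot be told apart.

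Between 2 and 4 DAP, 3395 genes rose (13.2% of those tested) and 3247 fell (12.6%), so that 25.8% were called in either direction. Of these, 2207 rose and 1755 fell by more than 2-fold, and 204 rose and 49 fell by more than 8-fold, on the log2(CPM + 1) scale. In 10992 genes (42.6%) all libraries of one stage lay beyond all those of the other. The median log2 change over all genes tested was -0.03, and it became 0.29 when each library was rescaled to the same total. With that rescaling 6293 genes rose and 1403 fell, and 81.8% of the calls were higher at 4 DAP, against 51.1% with the deposited normalization. With the replicate number as a block (the replicate block below), 5167 rose and 5727 fell. For each gene list, a pair of counts gives the genes that rose first and those that fell after them. Their shares are to be read against the 13.2% that rose and the 12.6% that fell over all genes tested. These pairs are given for the block where it changed them and for other settings that moved a count by more than 1.5 times or changed its balance. The other alternatives named with them are other pseudocounts, no filter, fits of 15 and 18 libraries, a constant prior variance, edgeR with and without the block, DESeq2, and a fit without both replicate 1 libraries. The filter at 5 CPM left fewer genes to test and is not given by list. Without replicate 2 at 4 DAP the counts over all genes were 2074 and 1521, and without replicate 3 at 2 DAP they were 2886 and 1971. A gene could pass the low-value filter through 1 stage alone, as 969 genes did through 4 DAP and 407 through 2 DAP. Such a gene had to differ, and its stages could not overlap. In all but the lists of the transfer layer and the embryo-surrounding region, 0 to 4 genes of a list passed through 4 DAP alone and 0 to 3 through 2 DAP alone. Endosperm of 3 DAP had a mean level between the means of both stages for 88.5% of the genes that rose and 94.1% of those that fell. These genes were picked by their difference between the same stages, and the share over all genes tested was not computed.

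**Figure D1:**
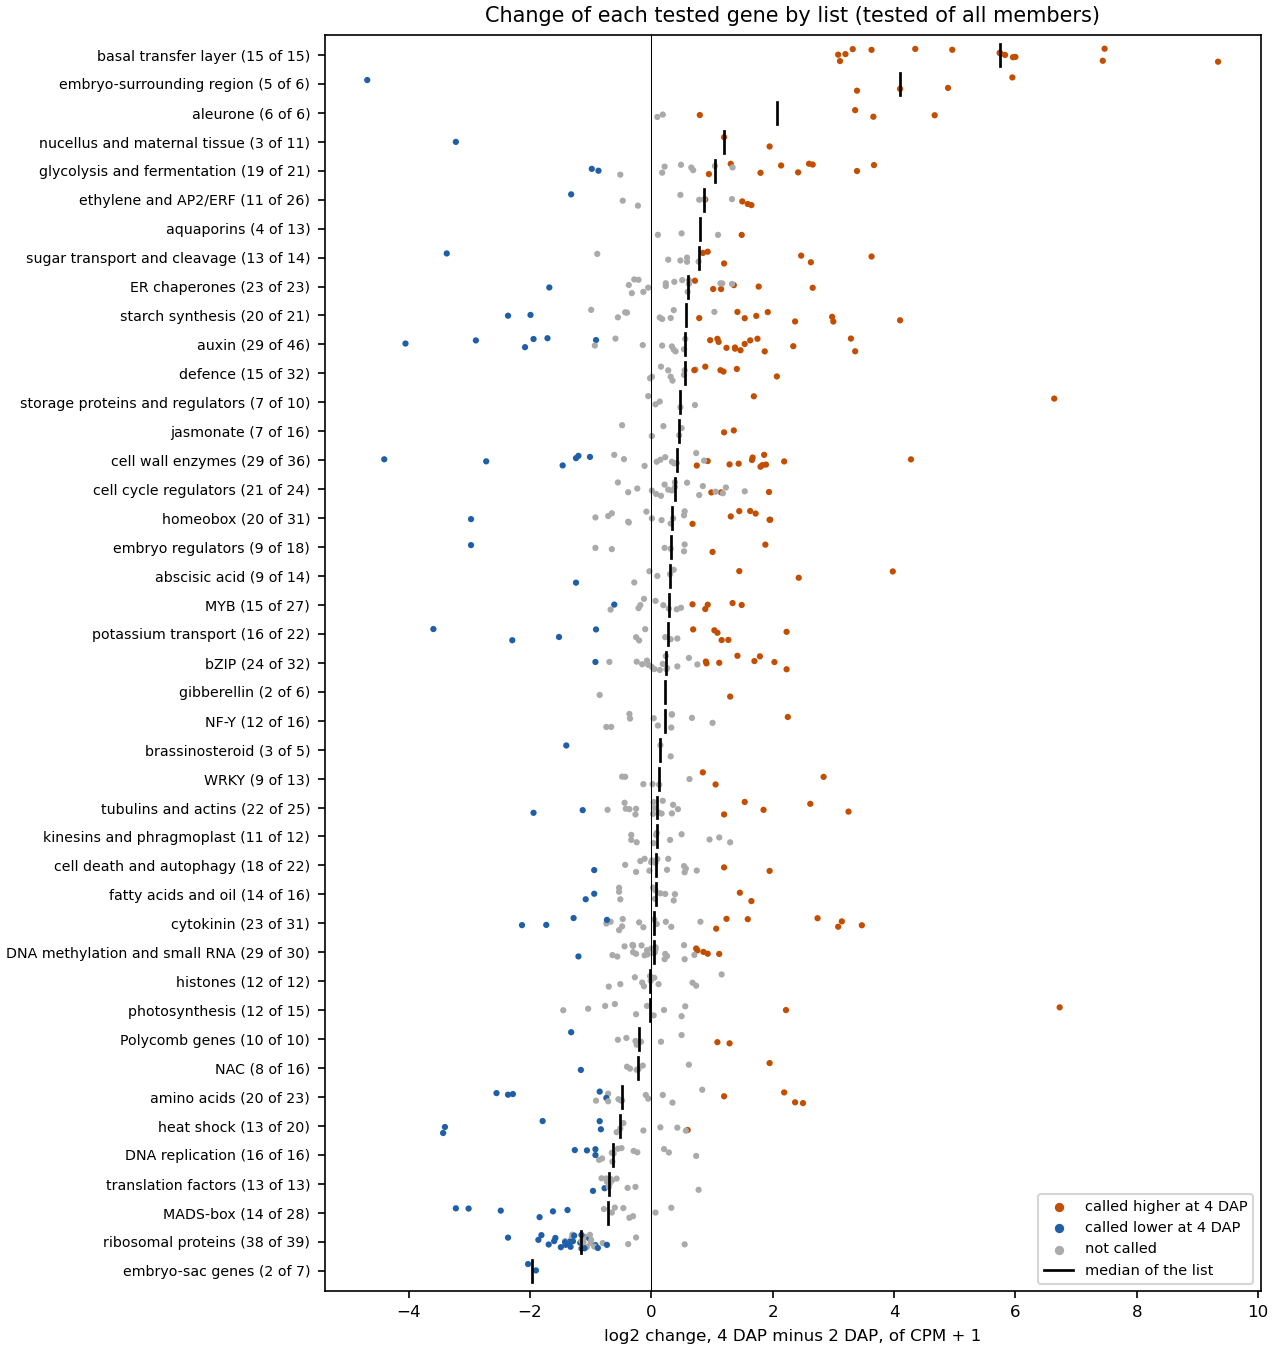
Log2 change (4 DAP minus 2 DAP, of CPM + 1) on the x axis for every tested gene of 43 gene lists, with called genes coloured by direction and a black bar at the median of each list. The lists run from the basal transfer layer at the top, with a median of 5.74, to the embryo sac genes at the bottom, with a median of -1.96 over 2 tested genes.

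All 15 measured genes of the basal transfer layer list rose, against 13.2% of the genes tested. EBE-1 and EBE-2, also known from the basal endosperm, were listed with the embryo sac instead and fell, by 1.90 and 2.03 on the log2 scale. The median log2 change of the 15 listed genes was 5.74 and the smallest was 3.08. Every one of the 15 passed the filter only through 4 DAP, so that these genes had to differ. The 15 genes summed to 670.0 to 2499 CPM at 4 DAP, against 0.143 to 0.898 CPM at 2 DAP, and to 0.316 to 1.48 CPM at 3 DAP. At 4 DAP replicate 3 was the lowest library for each of the 15 genes.

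meg2 (GRMZM2G088896), of the family of small peptides that includes the maternally expressed MEG1, had 1146, 1228 and 304 CPM at 4 DAP, against 0.573, 0 and 0 CPM at 2 DAP (log2 change 9.34 ± 0.49 (SE), adjusted p = 1.7e-05). The 2 DAP value came from replicate 1 alone, and the 4 DAP libraries all lay above it. A further model named meg2, GRMZM2G094054, had 284, 251 and 81.0 CPM at 4 DAP, against 0.0956, 0.0285 and 0 CPM at 2 DAP (log2 change 7.44). Both models map to the same entry of the reference table and could share reads, whereas MEG1 itself had 10.4, 12.2 and 3.26 CPM at 4 DAP, against 0.00956, 0 and 0 CPM at 2 DAP (log2 change 3.11).

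The betl genes encode small secreted peptides by which transfer cells are recognised. betl2 had 206, 352 and 87.1 CPM at 4 DAP, against 0.134, 0.0285 and 0 CPM at 2 DAP (log2 change 7.47 ± 0.43 (SE), adjusted p = 2.11e-05), a 3975-fold difference of means. BETL1 had 57.6, 124 and 34.0 CPM at 4 DAP, against 0, 0.0571 and 0 CPM at 2 DAP (log2 change 5.96). Over the 5 stages betl2 averaged 0.0874 CPM at 0 DAP, 0.0673 CPM at 1 DAP, 0.0541 CPM at 2 DAP, 0.0551 CPM at 3 DAP and 215 CPM at 4 DAP, so that its level was near 0 in every stage but the last. Their relatives betl3, betl4, betl-9 and betl10 had log2 changes between 4.35 and 5.83, and betl10 was at 0 in each 2 DAP library, which makes its 4 DAP mean at least 629-fold higher. The bap genes, named as basal layer antifungal peptides, were again lowest in replicate 3 at 4 DAP. bap-3a had 74.6, 109.6 and 30.1 CPM at 4 DAP, against 0 in each 2 DAP library and was at least 2031-fold higher, and bap1-b, with 18.6, 12.9 and 2.67 CPM at 4 DAP, against 0 in each 2 DAP library, was at least 324-fold higher. In the reference assembly bap-1a, bap1-b, bap-3a and bap-3b lie on chromosome 10 with 0 to 3 protein-coding genes between any pair of them.

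Genes of the transfer layer with other roles rose as well. mn1 (Miniature1), the cell wall invertase that splits sucrose at the base of the kernel, had 23.1, 11.6 and 5.81 CPM at 4 DAP, against 0, 0 and 0.102 CPM at 2 DAP (log2 change 3.63 ± 0.40 (SE), adjusted p = 0.000409). tcrr-1, a response regulator of transfer cells, had 10.7, 14.3 and 3.59 CPM at 4 DAP, against 0, 0 and 0.352 CPM at 2 DAP (log2 change 3.08 ± 0.40 (SE), adjusted p = 0.000976). In both genes replicate 3 was lowest at 4 DAP, and the stages could not overlap, since both passed the filter only through 4 DAP. Outside the list, BURP7, a BURP-domain gene, had 94.2, 84.9 and 22.3 CPM at 4 DAP, against 0.134, 0.0714 and 0 CPM at 2 DAP (log2 change 5.75 ± 0.48 (SE), adjusted p = 0.000106), and the YUCCA-family gene yuc (GRMZM2G091819), whose family makes auxin, had 11.8, 14.4 and 4.49 CPM at 4 DAP, against 0 in each 2 DAP library, at least 291-fold higher. Both had replicate 3 lowest among the 4 DAP libraries. Among genes with no name, GRMZM2G344323 had 697, 561 and 163 CPM at 4 DAP, against 0.325, 0 and 0 CPM at 2 DAP (log2 change 8.51). GRMZM2G007784 had 231, 508 and 139 CPM at 4 DAP, against 0.0191, 0.143 and 0 CPM at 2 DAP (log2 change 7.92). Replicate 3 was the lowest 4 DAP library in these genes too. It was also the lowest in genes outside the transfer layer, such as du1 and fl3, so that this does not place a gene in that layer.

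**Figure D2:**
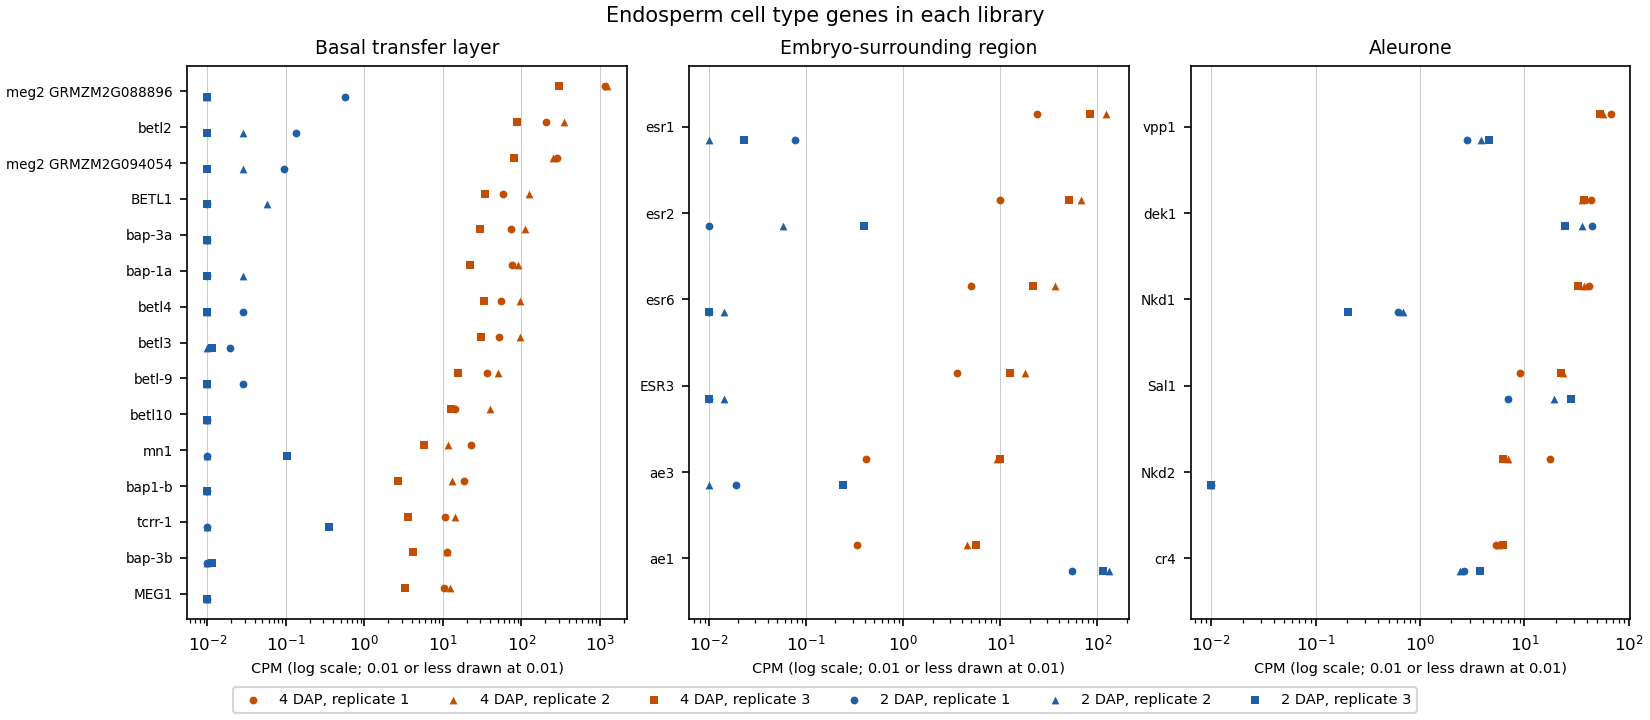
CPM on a log axis for every gene of the basal transfer layer, embryo-surrounding region and aleurone lists in each of the 3 libraries at 4 DAP (orange) and the 3 at 2 DAP (blue), with a marker shape for each replicate. The stages are separated in all 15 transfer-layer genes, which had to be so since these passed the filter only through 4 DAP. Replicate 3 is the lowest orange point of each gene in that panel, and replicate 1 is the lowest orange point of each gene in the embryo-surrounding panel.

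The embryo-surrounding region gave 5 tested genes, of which 4 rose and 1 fell. The 4 that rose, esr1, esr2, ESR3 and esr6, encode small CLE-type peptides and passed the filter only through 4 DAP. esr1 had 23.6, 124 and 84.5 CPM at 4 DAP, against 0.0765, 0 and 0.0227 CPM at 2 DAP (log2 change 5.95 ± 0.51 (SE), adjusted p = 0.000119). esr2 had 9.94, 67.3 and 50.5 CPM at 4 DAP, against 0.00956, 0.0571 and 0.397 CPM at 2 DAP (log2 change 4.89 ± 0.59 (SE), adjusted p = 0.000624). Replicate 1 held the least at 4 DAP in each gene of this list, unlike in the transfer layer. The stages did not overlap, which for the 4 esr genes followed from passing the filter through 4 DAP alone. esr6 had 4.94, 36.6 and 21.7 CPM at 4 DAP, against 0, 0.0143 and 0 CPM at 2 DAP (log2 change 4.10). ESR3 had 3.60, 17.9 and 12.5 CPM at 4 DAP, against 0.00956, 0.0143 and 0 CPM at 2 DAP (log2 change 3.39). The 4 esr genes summed to 42.1 to 246 CPM at 4 DAP and to 0.0857 to 0.420 CPM at 2 DAP, beside 3.19 to 3.65 CPM at 3 DAP and 469 to 872 CPM in the embryo libraries. The part of embryo tissue in the 4 DAP endosperm values was not tested. The 5 embryo markers named above were at most 0.731 CPM in sum in these libraries, and the list of 18 embryo regulators summed to 113 to 145 CPM.

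The gene listed as ae1 (GRMZM2G039942) went the other way. The symbol ae1 is also used for a starch branching enzyme gene, and the place of this gene in the list rests on the symbol alone. It had 0.334, 4.58 and 5.67 CPM at 4 DAP, against 54.2, 130.4 and 114 CPM at 2 DAP (log2 change -4.68 ± 0.58 (SE), adjusted p = 0.00074), and its mean was 859 CPM at 0 DAP. All 4 DAP libraries lay below all 2 DAP libraries, and replicate 1 was again the lowest. ae3, which failed the filter, had 0.413, 9.17 and 9.87 CPM at 4 DAP, against 0.0191, 0 and 0.238 CPM at 2 DAP. In the reference assembly it lies next to bap-1a, while esr1, esr2 and ESR3 lie side by side on chromosome 1 with at most 1 gene between any pair.

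Of the 6 aleurone genes 4 rose. Nkd1 and Nkd2 (naked endosperm) encode transcription factors required for aleurone identity. Nkd1 had 41.3, 37.0 and 32.5 CPM at 4 DAP, against 0.612, 0.685 and 0.204 CPM at 2 DAP (log2 change 4.67 ± 0.23 (SE), adjusted p = 1.65e-05). Nkd2 had 17.6, 7.01 and 6.22 CPM at 4 DAP, against 0 in each 2 DAP library, and was at least 292-fold higher. Both were already present at 3 DAP, with 9.23, 5.13 and 11.3 CPM of Nkd1 and 1.12, 0.474 and 1.2 CPM of Nkd2. vpp1, a proton-pumping pyrophosphatase of the vacuole, had 66.6, 56.3 and 52.6 CPM at 4 DAP, against 2.84, 3.83 and 4.62 CPM at 2 DAP (log2 change 3.66 ± 0.22 (SE), adjusted p = 2.53e-05). Its means were 20.5 CPM at 0 DAP, 19.9 CPM at 1 DAP, 23.15 CPM at 3 DAP and 39.3 CPM in the embryo libraries, so that 2 DAP was its lowest stage. Libraries of the stages were apart in all 3 genes, which for Nkd1 and Nkd2 followed from passing the filter through 4 DAP alone. The receptor kinase gene cr4 had 5.29, 5.75 and 6.23 CPM at 4 DAP, against 2.62, 2.40 and 3.78 CPM at 2 DAP (log2 change 0.80 ± 0.22 (SE), adjusted p = 0.0295), a call lost without replicate 2 or 3 at 4 DAP, without replicate 1 or 2 at 2 DAP and without both replicate 1 libraries. dek1, a membrane calpain needed for aleurone fate, had 42.9, 35.8 and 37.4 CPM at 4 DAP, against 44, 35.5 and 24.5 CPM at 2 DAP (log2 change 0.19, adjusted p = 0.609), and Sal1, which acts in vacuolar sorting, had a log2 change of 0.10 (adjusted p = 0.907). The ranges of the stages overlapped in both.

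Starch genes split. Of 21 listed, 9 of 20 tested genes rose (45%) and 2 fell (10%), or 9 and 4 with the replicate block or under quantile normalization. The median log2 change was 0.58. Apart from sus2, the genes that rose encode ADP-glucose pyrophosphorylase subunits, starch synthases or branching enzymes. Agp2 (GRMZM2G106213), a subunit gene of ADP-glucose pyrophosphorylase, had 66.5, 52.4 and 37.0 CPM at 4 DAP, against 4.85, 7.19 and 4.56 CPM at 2 DAP (log2 change 3.00 ± 0.27 (SE), adjusted p = 0.000157). AGP2 (GRMZM2G027955), of the same enzyme, had 42.4, 25.5 and 16.6 CPM at 4 DAP, against 1.04, 0.542 and 0.272 CPM at 2 DAP (log2 change 4.10 ± 0.34 (SE), adjusted p = 0.000112). The stages were apart in both, with replicate 1 highest and replicate 3 lowest at 4 DAP. du1 (dull1, starch synthase III) had 155, 109 and 73.4 CPM at 4 DAP, against 18.1, 20.6 and 21.5 CPM at 2 DAP (log2 change 2.37 ± 0.28 (SE), adjusted p = 0.00054), in the same order of libraries. sugary2 (starch synthase IIa) had 11.7, 9.88 and 7.52 CPM at 4 DAP, against 0.201, 0.557 and 0.284 CPM at 2 DAP (log2 change 2.98), ss1 rose by 1.92, GBSSIIa by 1.54 and the branching enzyme gene SBEIIb by 1.42 on the log2 scale.

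Sucrose synthase genes, whose enzymes cleave incoming sucrose, did not move together. sh1 (shrunken1) had 2.27, 0.244 and 1.46 CPM at 4 DAP, against 8.48, 6.28 and 8.10 CPM at 2 DAP (log2 change -1.99 ± 0.34 (SE), adjusted p = 0.0037). sus1 had 1.82, 0.420 and 0.372 CPM at 4 DAP, against 7.42, 10.4 and 6.83 CPM at 2 DAP (log2 change -2.36 ± 0.31 (SE), adjusted p = 0.00101). Both fell with no overlap, having averaged 44.5 CPM (sh1) and 66.7 CPM (sus1) at 0 DAP. sus2 had 3.61, 2.63 and 4.07 CPM at 4 DAP, against 0.0478, 0.857 and 0.193 CPM at 2 DAP (log2 change 1.73 ± 0.25 (SE), adjusted p = 0.00161). Its stages could not overlap, since it passed the filter through 4 DAP alone. The endosperm pyrophosphorylase subunit genes sh2 and bt2 were not called, with log2 changes of -0.99 (adjusted p = 0.0633) and 0.14 (adjusted p = 0.827), although sh2 passed with the replicate block (adjusted p = 0.0149, limma). wx1 (waxy1, the granule-bound starch synthase of the storage endosperm) failed the filter, with 0.211, 0.650 and 0.509 CPM at 4 DAP, against 0.573, 0.400 and 0.136 CPM at 2 DAP.

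Among storage protein genes and their regulators 2 of 7 tested genes rose and 0 fell. The counts became 3 and 0 with the replicate block, 1 and 0 without 4 DAP replicate 2 or 2 DAP replicate 2. fl3 (floury3), a PLATZ-type regulator, had 204, 128 and 51.7 CPM at 4 DAP, against 0.0669, 0 and 0.306 CPM at 2 DAP (log2 change 6.64 ± 0.43 (SE), adjusted p = 3.42e-05), a 1028-fold difference of means. Replicate 1 was highest and replicate 3 lowest at 4 DAP, and at 3 DAP the gene had 0.149, 0 and 0.871 CPM. O10 (opaque10), which acts in zein protein bodies, had 10.2, 7.83 and 2.99 CPM at 4 DAP, against 1.82, 0.557 and 1.68 CPM at 2 DAP (log2 change 1.69 ± 0.40 (SE), adjusted p = 0.0147), a call lost without replicate 2 at 4 DAP and without replicate 2 at 2 DAP. The zein regulator pbf1 (GRMZM2G146267) had 97.6, 69.2 and 67.5 CPM at 4 DAP, against 81.0, 79.8 and 60.7 CPM at 2 DAP (log2 change 0.07, adjusted p = 0.849). Opaque11, o7, ohp1 and ohp2 had log2 changes between -0.05 and 0.72 and were not called, except that o7 passed with the replicate block (adjusted p = 0.013, limma).

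PPDK2, a gene of pyruvate orthophosphate dikinase, which interconverts pyruvate and phosphoenolpyruvate, had 129, 126 and 71.5 CPM at 4 DAP, against 0 in each 2 DAP library (log2 change 6.73 ± 0.27 (SE), adjusted p = 9.57e-06), at least 3093-fold higher. Its relative Ppdk1 had 8.91, 5.16 and 2.33 CPM at 4 DAP, against 0.115, 0.414 and 0.284 CPM at 2 DAP (log2 change 2.22 ± 0.35 (SE), adjusted p = 0.00248). In both genes, which passed the filter through 4 DAP alone, all 4 DAP libraries lay above all 2 DAP libraries, and replicate 3 was the lowest 4 DAP library.

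Of 14 genes of sugar transport and cleavage, 6 of 13 tested genes rose (46.2%) and 1 fell (7.69%). The counts became 10 and 2 with the replicate block, 10 and 1 after rescaling to equal totals, 5 and 2 without 4 DAP replicate 3, and 5 to 9 rose and 1 to 2 fell over the other alternatives. frk2, a fructokinase gene, had 146, 174 and 155 CPM at 4 DAP, against 26.9, 21.9 and 25.2 CPM at 2 DAP (log2 change 2.63 ± 0.19 (SE), adjusted p = 6.07e-05). The sucrose transporter gene sut1 had 8.92, 4.72 and 2.1 CPM at 4 DAP, against 0.0478, 0 and 0 CPM at 2 DAP (log2 change 2.47 ± 0.36 (SE), adjusted p = 0.00164), whereas sut2 had a log2 change of 0.28 (adjusted p = 0.453). IVR1, a soluble invertase gene, had 0.430, 1.01 and 2.83 CPM at 4 DAP, against 15.1, 23.9 and 29.6 CPM at 2 DAP (log2 change -3.37 ± 0.38 (SE), adjusted p = 0.000483). The invertase genes IVR1 and mn1 moved in opposite directions between the same libraries, each with no overlap of the stages. For mn1 this followed from passing the filter through 4 DAP alone.

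Glycolysis breaks down sugar, and fermentation regenerates its NAD without oxygen. In this list 9 of 19 tested genes rose and 2 fell. The counts became 14 and 2 with the replicate block, 14 and 0 after rescaling to equal totals, 14 and 1 under quantile normalization, 11 and 1 without 4 DAP replicate 1 or 2 DAP replicate 3, 6 and 0 without 4 DAP replicate 2, 8 and 1 without 2 DAP replicate 2, and 9 to 14 rose and 1 to 2 fell over the other alternatives. The median log2 change was 1.05. The share that rose was 47.4%, against 13.2% of all genes. adh1 (alcohol dehydrogenase) had 1996, 1743 and 1572 CPM at 4 DAP, against 141, 132 and 252 CPM at 2 DAP (log2 change 3.39 ± 0.29 (SE), adjusted p = 0.000131). pdc3 (pyruvate decarboxylase) had 131, 204 and 148 CPM at 4 DAP, against 9.84, 6.28 and 23.9 CPM at 2 DAP (log2 change 3.67 ± 0.41 (SE), adjusted p = 0.00044). These enzymes catalyse consecutive steps, and for both genes the lowest 4 DAP library exceeded the highest 2 DAP library. GPC1, a cytosolic glyceraldehyde-3-phosphate dehydrogenase gene, had 1158, 1879 and 1882 CPM at 4 DAP, against 189.9, 207 and 405 CPM at 2 DAP (log2 change 2.66 ± 0.35 (SE), adjusted p = 0.000971). eno1 (enolase) had 4188, 3494 and 4041 CPM at 4 DAP, against 736, 877 and 1057 CPM at 2 DAP (log2 change 2.14 ± 0.27 (SE), adjusted p = 0.000834). CYTMDH, a malate dehydrogenase gene outside the list, had 1224, 1551 and 1379 CPM at 4 DAP, against 349, 356 and 549 CPM at 2 DAP (log2 change 1.75 ± 0.27 (SE), adjusted p = 0.00212). Both models named phi1, a phosphohexose isomerase, rose, with log2 changes of 2.6 (GRMZM2G065083) and 2.42 (GRMZM6G477257). GAPCP and enolase fell by 0.87 and 0.98 on the log2 scale. The fall of enolase was lost after rescaling to equal totals and without replicate 2 at 4 DAP, and the call of GAPCP was lost without replicate 1 or 2 at 4 DAP, without replicate 2 or 3 at 2 DAP, with no filter, after rescaling to equal totals, under quantile normalization and by edgeR.

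**Figure D3:**
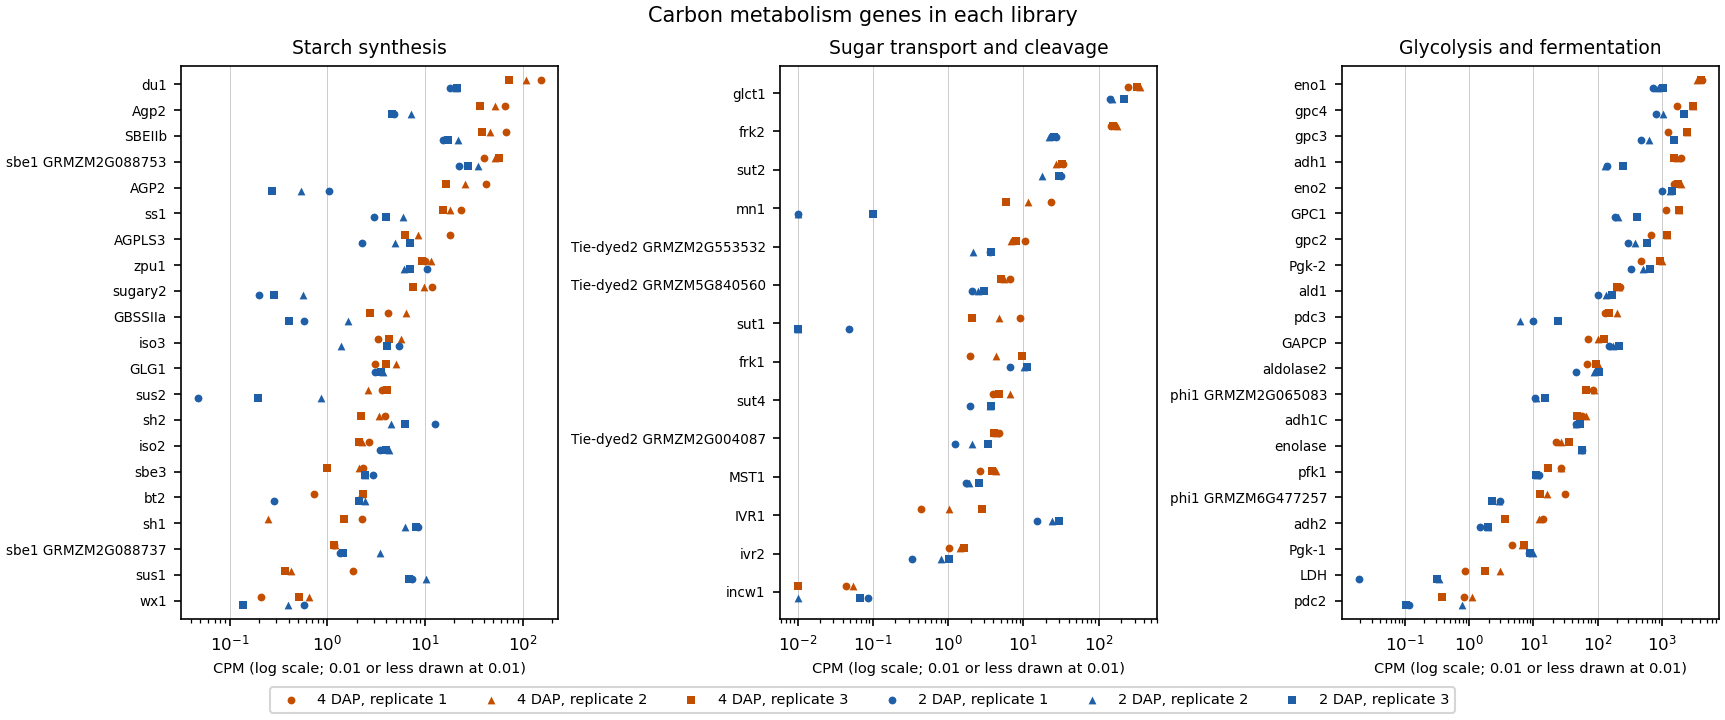
CPM on a log axis for every gene of the starch, sugar and glycolysis lists in the 3 libraries at 4 DAP (orange) and the 3 at 2 DAP (blue), with a marker shape for each replicate. Orange points lie to the right of blue ones for du1, frk2, adh1 and eno1, and to the left of them for sh1, sus1 and IVR1.

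Of 46 auxin genes listed, 14 of 29 tested genes rose (48.3%) and 6 fell (20.7%). The counts became 15 and 8 with the replicate block, 15 and 3 after rescaling to equal totals, 11 and 3 without 4 DAP replicate 2. The median log2 change was 0.56. Auxin response factors, the transcription factors that act on auxin-responsive promoters, gave 9 rises and 1 fall among 15 tested. ARF11 had 13.7, 11.6 and 8.65 CPM at 4 DAP, against 0.325, 0.30 and 0.114 CPM at 2 DAP (log2 change 3.29 ± 0.23 (SE), adjusted p = 4.1e-05). ARF28 had 125, 119 and 102 CPM at 4 DAP, against 28.2, 29.0 and 35.4 CPM at 2 DAP (log2 change 1.87 ± 0.20 (SE), adjusted p = 0.000379). ARF13 had 123, 145 and 120.2 CPM at 4 DAP, against 45.4, 49.3 and 43.0 CPM at 2 DAP (log2 change 1.47 ± 0.19 (SE), adjusted p = 0.000977). The stages did not overlap in any of these, which for ARF11 followed from passing the filter through 4 DAP alone. ARF16, ARF18, ARF30, ARF3, ARF21 and ARF10 rose by 1.09 to 2.34 on the log2 scale, with the call of ARF10 lost without replicate 2 at 4 DAP. ARF1 had 5.08, 4.25 and 5.79 CPM at 4 DAP, against 10.2, 11.6 and 9.22 CPM at 2 DAP and fell (log2 change -0.91), a call lost without replicate 2 at 4 DAP and after rescaling to equal totals.

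Genes that move and make auxin included several that fell. The efflux carrier gene PIN10a had 0.263, 0.163 and 0.149 CPM at 4 DAP, against 12.5, 23.7 and 22.1 CPM at 2 DAP (log2 change -4.05 ± 0.27 (SE), adjusted p = 3.53e-05). PIN8 had 0, 0.0271 and 0.124 CPM at 4 DAP, against 6.61, 6.0 and 7.85 CPM at 2 DAP (log2 change -2.89 ± 0.19 (SE), adjusted p = 3.42e-05). Every 4 DAP library lay below every 2 DAP library, which for both genes followed from passing the filter through 2 DAP alone. The 3 DAP libraries had 0.0826, 1.00 and 1.63 CPM of PIN10a and 0.132, 0.579 and 0.457 CPM of PIN8. Yucca3, of the family that makes auxin, had 1024, 3097 and 3364 CPM at 4 DAP, against 5954, 10998 and 5694 CPM at 2 DAP (log2 change -1.71 ± 0.50 (SE), adjusted p = 0.0354). Its lowest 4 DAP library was replicate 1, and the call was lost without replicate 1 or 2 at 4 DAP, without replicate 2 or 3 at 2 DAP, with no filter, after rescaling to equal totals, under quantile normalization and in the fit of all 18 libraries. Its 3 DAP libraries had 1407, 2486 and 1956 CPM, and its mean at 0 DAP was 9.57 CPM. Yucca6, with 3.43, 14.8 and 18.6 CPM at 4 DAP, against 21.3, 51.8 and 64.6 CPM at 2 DAP (log2 change -1.94 ± 0.57 (SE), adjusted p = 0.0359), fell, a call lost without replicate 1 or 2 at 4 DAP, without replicate 2 or 3 at 2 DAP, with no filter, after rescaling to equal totals and by edgeR. The yuc gene described above rose, so that the 3 tested members of the family did not share a direction. AUX6 and AUX17, of the Aux/IAA repressors, rose by 1.38 and 1.54, and AUX1 fell by 2.08 on the log2 scale, a call lost by edgeR.

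Cytokinin signals pass from histidine kinase receptors through phosphotransfer proteins to response regulators. Of 31 listed genes, 7 of 23 tested genes rose (30.4%) and 4 fell (17.4%). The counts became 8 and 8 with the replicate block, 4 and 4 without 4 DAP replicate 2. Receptor genes gave 3 rises among 4 tested. HK1 had 9.35, 7.93 and 7.21 CPM at 4 DAP, against 0.545, 0.285 and 0.284 CPM at 2 DAP (log2 change 2.74 ± 0.20 (SE), adjusted p = 6.27e-05). hk2 had 4.42, 3.90 and 2.38 CPM at 4 DAP, against 0.411, 0.428 and 0.624 CPM at 2 DAP (log2 change 1.59 ± 0.22 (SE), adjusted p = 0.00126). HK1b2 had 1.88, 1.95 and 1.89 CPM at 4 DAP, against 0.478, 0 and 0.25 CPM at 2 DAP (log2 change 1.24 ± 0.18 (SE), adjusted p = 0.00174). The stages were apart in all 3, each of which passed the filter through 4 DAP alone and had a mean below 1 CPM at 2 DAP.

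Of the 3 phosphotransfer genes tested, HP1 and HP3 rose, with a wide spread. HP1 had 218, 729.5 and 1216 CPM at 4 DAP, against 26.0, 45.8 and 224 CPM at 2 DAP (log2 change 3.14 ± 0.80 (SE), adjusted p = 0.0203). HP3 had 69.2, 205 and 217 CPM at 4 DAP, against 2.63, 10.7 and 53.0 CPM at 2 DAP (log2 change 3.47 ± 0.84 (SE), adjusted p = 0.0169). Replicate 1 was lowest and replicate 3 highest in both stages and both genes, and the HP1 ranges overlapped, since replicate 3 at 2 DAP exceeded replicate 1 at 4 DAP. Both calls were lost without replicate 2 or 3 at 4 DAP and without replicate 2 at 2 DAP, that of HP1 also without replicate 1 at 2 DAP and that of HP3 by edgeR. HP1 had 718, 1421 and 2001 CPM at 3 DAP. hp2 had a log2 change of 0.33 (adjusted p = 0.578).

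Response regulators fell in 3 cases and rose in 2. RR6 had 3.16, 4.12 and 2.82 CPM at 4 DAP, against 9.57, 14.2 and 17.3 CPM at 2 DAP (log2 change -1.73 ± 0.26 (SE), adjusted p = 0.00207). RR11 had 0.272, 0.447 and 0.335 CPM at 4 DAP, against 2.65, 6.14 and 6.84 CPM at 2 DAP (log2 change -2.13 ± 0.29 (SE), adjusted p = 0.00118). RR9 had 1.31, 1.48 and 2.73 CPM at 4 DAP, against 6.58, 5.10 and 5.57 CPM at 2 DAP (log2 change -1.28 ± 0.25 (SE), adjusted p = 0.00626). No 4 DAP library of these 3 genes reached any of the 2 DAP libraries, which for RR11 followed from passing the filter through 2 DAP alone. Beside tcrr-1, RR5 (GRMZM2G032496) rose, by 1.07 on the log2 scale, a call lost without replicate 2 at 4 DAP, and 6 further regulators tested were not called, with log2 changes from -0.74 to 0.09. Of these, RR4 (adjusted p = 0.0333) and RR8 (adjusted p = 0.0122) passed limma with the replicate block. The cytokinin oxidase gene cko2 fell by 0.73 on the log2 scale, a call lost without replicate 3 at 4 DAP. HK1b1, ckx1, cko3 and both tested models named IPT, a gene family of cytokinin synthesis, had log2 changes between -0.53 and 0.81 and were not called. With the replicate block HK1b1 (adjusted p = 0.0241), ckx1 (adjusted p = 0.0488) and the IPT model GRMZM2G102915 (adjusted p = 0.0325) passed the limma test.

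**Figure D4:**
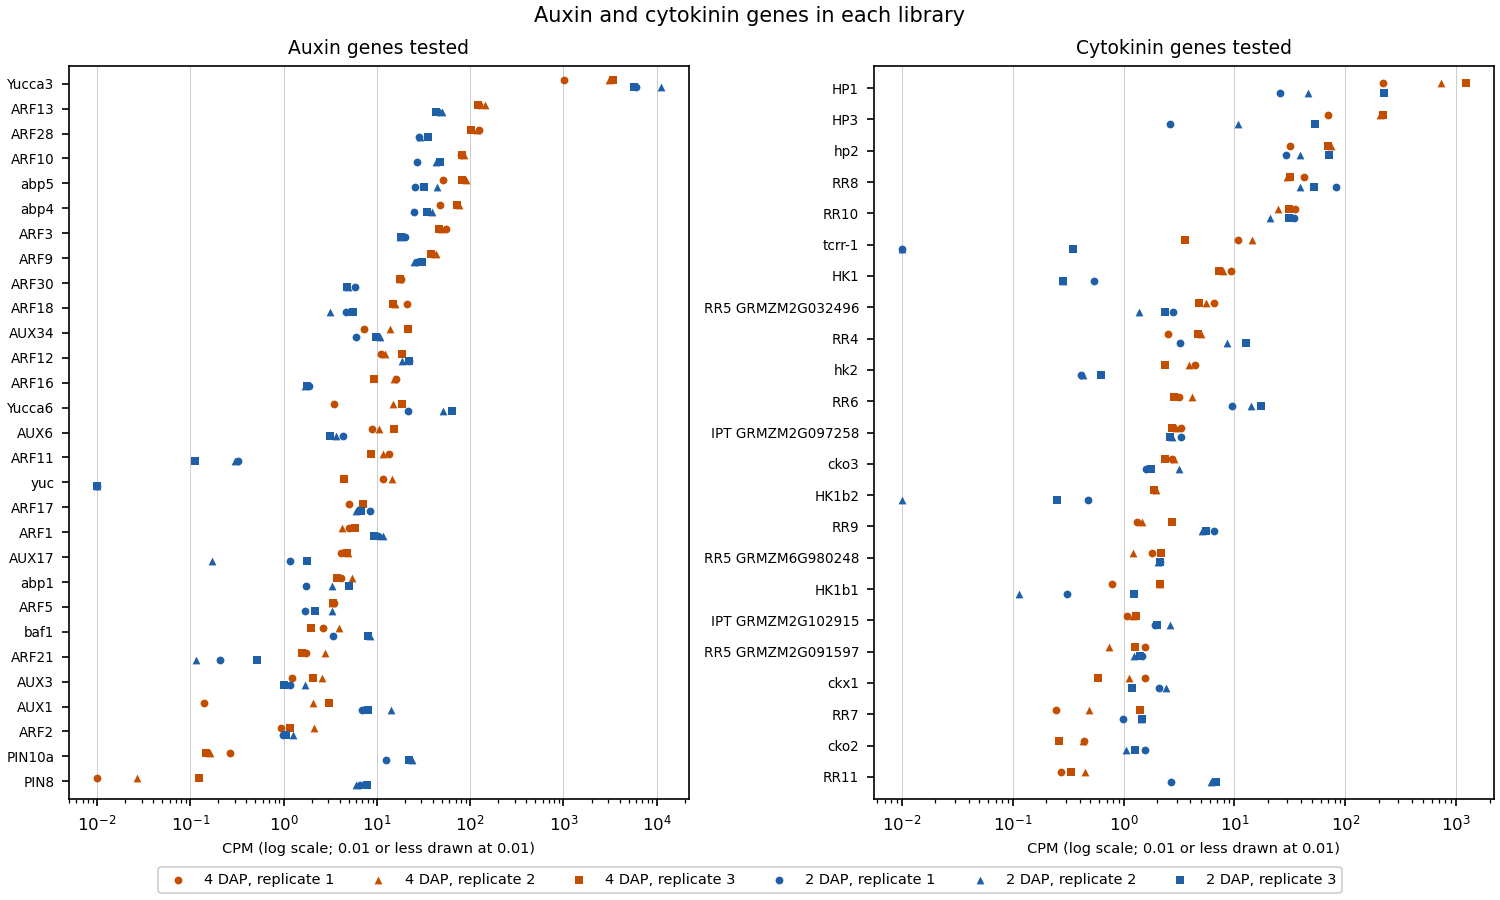
CPM on a log axis for every tested gene of the auxin and cytokinin lists in the 3 libraries at 4 DAP (orange) and the 3 at 2 DAP (blue), with a marker shape for each replicate. Orange points lie to the right of blue ones for the auxin response factors ARF11, ARF16 and ARF28 and for HK1, and to the left for PIN10a, PIN8 and RR11.

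Among other hormone genes, in the abscisic acid list 3 of 9 tested genes rose and 1 fell. The counts became 3 and 0 after rescaling to equal totals, 3 and 0 without 4 DAP replicate 2 or 3 or 2 DAP replicate 2 or 3, and 3 to 4 rose and 0 to 1 fell over the other alternatives. SnRK2.7, a kinase gene of abscisic acid signalling, had 14.7, 25.1 and 21.7 CPM at 4 DAP, against 0.220, 0.400 and 0.386 CPM at 2 DAP (log2 change 3.98 ± 0.25 (SE), adjusted p = 2.72e-05). The receptor gene PYL10 (GRMZM2G165567) had 8.10, 13.9 and 8.90 CPM at 4 DAP, against 0.803, 1.34 and 1.04 CPM at 2 DAP (log2 change 2.43 ± 0.25 (SE), adjusted p = 0.000327). Both were apart between the stages, which for SnRK2.7 followed from passing the filter through 4 DAP alone. Among ethylene and AP2/ERF genes 4 of 11 tested genes rose and 1 fell (7 and 1 with the replicate block, 8 and 1 after rescaling to equal totals, and 4 to 6 rose and 1 to 2 fell over the other alternatives), including the ethylene receptor gene etr2, which rose by 1.5, and EREB94, which fell by 1.32 on the log2 scale. D8 (dwarf8), a DELLA repressor of gibberellin responses, rose by 1.3, and Dwf4, of brassinosteroid synthesis, fell by 1.40, a call lost without replicate 3 at 4 DAP. In the gibberellin list, of 2 tested, d3 was also called, lower, with the replicate block. In the jasmonate list 2 of 7 tested genes rose and 0 fell (4 and 0 with the replicate block, and 2 to 4 rose and 0 fell over the other alternatives), namely aoc2 and lox1, of jasmonate and oxylipin synthesis, by 1.36 and 1.2 on the log2 scale.

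Polycomb genes, which keep target genes silent through histone methylation, gave 3 calls. Of 10 tested, 2 rose and 1 fell (2 and 2 with the replicate block, 1 and 1 without 4 DAP replicate 2, and 2 rose and 1 to 2 fell over the other alternatives), and the median log2 change was -0.21, or 0.18 after rescaling to equal totals. The shares, 20% and 10%, were not far from the 13.2% and 12.6% of all genes. mez2 and mez3 encode methyltransferases of the complex. mez2 had 39.7, 30.7 and 23.8 CPM at 4 DAP, against 11.3, 14.4 and 10.5 CPM at 2 DAP (log2 change 1.29). mez3 had 8.79, 9.40 and 6.33 CPM at 4 DAP, against 2.35, 4.22 and 3.40 CPM at 2 DAP (log2 change 1.09), a call lost without replicate 2 at 4 DAP. nfc104, of the histone-binding WD40 type, had 34.5, 37.9 and 49.4 CPM at 4 DAP, against 111, 96.4 and 98.2 CPM at 2 DAP (log2 change -1.32 ± 0.21 (SE), adjusted p = 0.00252). fie1, an endosperm-specific and imprinted Polycomb gene, had 73.2, 77.2 and 95.9 CPM at 4 DAP, against 121, 114 and 124 CPM at 2 DAP (log2 change -0.55, adjusted p = 0.075). It averaged 0.242 CPM at 0 DAP and 2.88 CPM in the embryo libraries, and the stages did not overlap although the gene was not called. With the replicate block it passed (adjusted p = 0.0144, limma). mez1, fie2, vef101, nfc101, nfc102 and nfc103 had log2 changes between -0.41 and 0.50 and were not called.

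HDT1, a plant-specific histone deacetylase gene, had 477, 566 and 612 CPM at 4 DAP, against 1774, 1560.0 and 1551 CPM at 2 DAP (log2 change -1.56 ± 0.24 (SE), adjusted p = 0.00212). Of DNA methylation and small RNA genes, 5 of 29 tested genes rose and 1 fell. The share that rose, 17.2%, was near the 13.2% of all genes, and 3.45% fell, against 12.6%. The counts became 7 and 3 with the replicate block, 9 and 0 after rescaling to equal totals, 2 and 1 without 4 DAP replicate 1 or 3 or 2 DAP replicate 3, 1 and 0 without 4 DAP replicate 2, 3 and 1 without 2 DAP replicate 2, and 4 to 7 rose and 1 to 3 fell over the other alternatives. met5, a DNA methyltransferase gene, had 124, 113 and 135 CPM at 4 DAP, against 410.1, 290.3 and 196 CPM at 2 DAP (log2 change -1.20 ± 0.28 (SE), adjusted p = 0.0145). This call was lost without replicate 2 at 4 DAP, after rescaling to equal totals and under quantile normalization. The largest rises were those of mbd105 (log2 change 1.12) and of the dcl4 models GRMZM2G160473 (0.93) and GRMZM2G024466 (0.86). The call of GRMZM2G160473 was lost without replicate 2 at 4 DAP. That of GRMZM2G024466 was lost without replicate 1, 2 or 3 at 4 DAP and without replicate 2 or 3 at 2 DAP.

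MADS-box genes, known for their roles in flowers and ovules, were called in the falling direction: 6 of 14 tested fell, or 42.9% against 12.6% of all genes, with 10 falling under the replicate block and 6 to 10 over the other alternatives. Their median log2 change was -0.71, or -0.36 after rescaling to equal totals. zag2 had 0.404, 1.29 and 4.36 CPM at 4 DAP, against 28.0, 21.8 and 19.9 CPM at 2 DAP (log2 change -3.22 ± 0.43 (SE), adjusted p = 0.0011). zmm29 had 0.729, 1.85 and 0.583 CPM at 4 DAP, against 16.9, 18.6 and 10.7 CPM at 2 DAP (log2 change -3.01 ± 0.30 (SE), adjusted p = 0.000274). MADS18 had 0.650, 2.22 and 1.44 CPM at 4 DAP, against 13, 17.3 and 7.86 CPM at 2 DAP (log2 change -2.48 ± 0.34 (SE), adjusted p = 0.00115). None of the 4 DAP libraries overlapped with those of 2 DAP. These genes were at 79.7 CPM (zag2), 71.2 CPM (zmm29) and 63.7 CPM (MADS18) on average at 0 DAP and between 0.231 and 10.8 CPM in the 3 DAP libraries. zmm6, MADS4 and zmm27 fell by 1.38 to 1.84 on the log2 scale. zag2 is also listed with genes of the nucellus, the maternal tissue around the embryo sac, of which 3 of 11 were tested. The other called genes of that list, the cysteine protease genes ccp1 and see1, rose by 1.95 and 1.2, with the call of see1 lost without replicate 2 or 3 at 4 DAP and without replicate 1 or 3 at 2 DAP. The 11 genes summed to 24.1 to 56.0 CPM at 4 DAP, against 34.8 to 37.5 CPM at 2 DAP, and the part of maternal tissue in the MADS-box values was not tested.

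EBE-1 and EBE-2, known from the embryo sac and the basal endosperm, fell. EBE-1 had 10.6, 21.5 and 21.8 CPM at 4 DAP, against 53.7, 50.7 and 109 CPM at 2 DAP (log2 change -1.90 ± 0.36 (SE), adjusted p = 0.00577). EBE-2 had 104, 236 and 254 CPM at 4 DAP, against 582, 606 and 1211 CPM at 2 DAP (log2 change -2.03 ± 0.41 (SE), adjusted p = 0.00741). All 4 DAP libraries lay below all 2 DAP libraries, with replicate 1 lowest at 4 DAP.

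Among homeobox genes 7 of 20 tested genes rose (35%) and 1 fell (5%). The counts became 7 and 4 with the replicate block, 6 and 3 under quantile normalization, 6 and 3 without 2 DAP replicate 1, and 6 to 8 rose and 1 to 4 fell over the other alternatives. rld1 (rolled leaf1), an HD-ZIP III gene of leaf polarity, had 176, 126 and 115 CPM at 4 DAP, against 22.7, 42.8 and 43.2 CPM at 2 DAP (log2 change 1.95 ± 0.29 (SE), adjusted p = 0.002). rld2 had 114, 104 and 117 CPM at 4 DAP, against 30.4, 30.0 and 48.8 CPM at 2 DAP (log2 change 1.63 ± 0.24 (SE), adjusted p = 0.00164). ocl3, of the HD-ZIP IV family that marks outer cell layers, had 0.571, 0.880 and 1.84 CPM at 4 DAP, against 13.7, 16.4 and 14.8 CPM at 2 DAP (log2 change -2.97 ± 0.26 (SE), adjusted p = 0.000144), while HDZIV6_OCL6 and HDZIV8_OCL8 of the same family rose by 1.72 and 1.45 on the log2 scale. Stages were apart in each of these genes. In the bZIP list 8 of 24 tested genes rose and 1 fell (9 and 2 with the replicate block, 12 and 0 after rescaling to equal totals, 6 and 0 without 4 DAP replicate 2 or 2 DAP replicate 3, 7 and 0 without 4 DAP replicate 3 or 2 DAP replicate 1, and 7 to 8 rose and 1 to 2 fell over the other alternatives), with the largest rises in bZip112 (2.23) and OBF1 (2.03). The bZIP shares were 33.3% and 4.17%. WRKY72 had 7.89, 7.16 and 6.73 CPM at 4 DAP, against 0.115, 0 and 0.363 CPM at 2 DAP (log2 change 2.84 ± 0.20 (SE), adjusted p = 4.8e-05), and 3 of 9 WRKY genes tested rose (4 and 0 with the replicate block, 3 and 1 under quantile normalization). THX11, a trihelix factor, had 0.193, 0.839 and 0.732 CPM at 4 DAP, against 19.2, 33.6 and 19.8 CPM at 2 DAP (log2 change -3.97 ± 0.29 (SE), adjusted p = 5.73e-05) and was lower in every 4 DAP library. That had to be so, since THX11 passed the filter through 2 DAP alone. Of genes with no name, GRMZM2G563190 had 1.26, 2.27 and 2.82 CPM at 4 DAP, against 308, 197 and 159.6 CPM at 2 DAP (log2 change -6.13). GRMZM2G075594 had 0.158, 0 and 0 CPM at 4 DAP, against 74.7, 42.9 and 75.5 CPM at 2 DAP (log2 change -5.92).

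**Figure D5:**
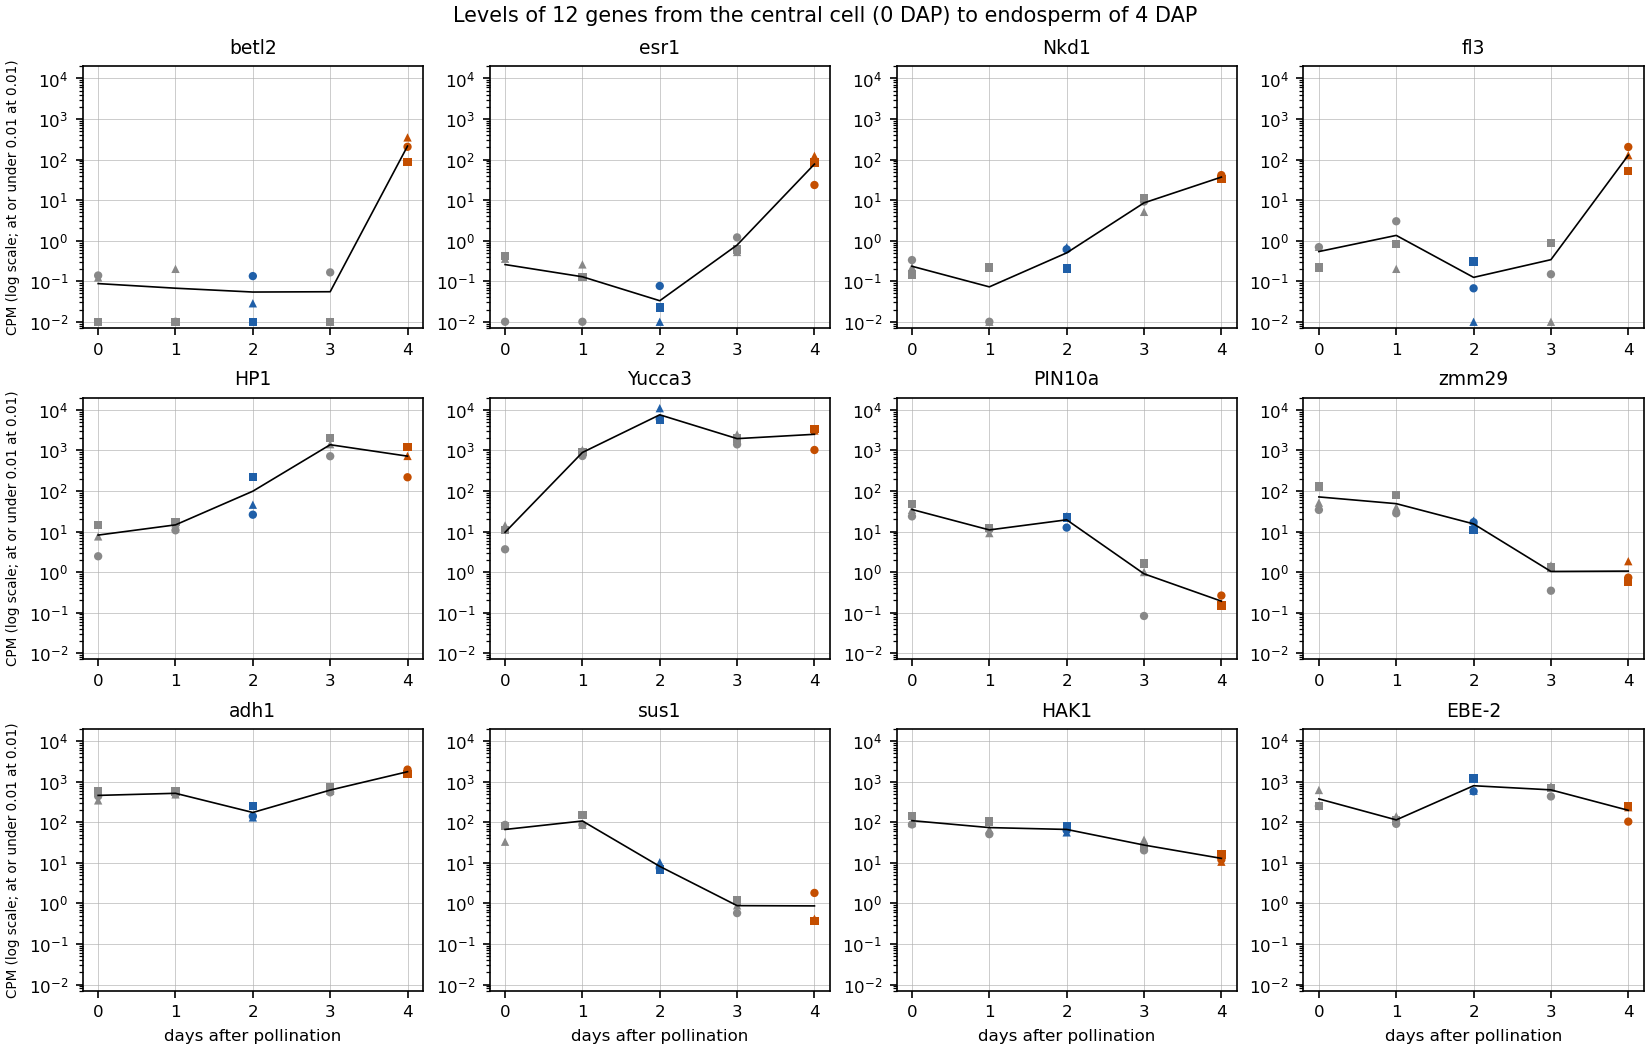
CPM on a log axis at 0, 1, 2, 3 and 4 DAP for 12 genes, with a circle, triangle and square for replicates 1, 2 and 3, a line through the stage means, 2 DAP in blue, 4 DAP in orange and values of 0.01 or less drawn at 0.01. betl2 and fl3 stay below 1 CPM at 3 DAP and then rise, Nkd1 climbs from 2 DAP, HP1 peaks at 3 DAP, and PIN10a and zmm29 reach low values by 3 DAP.

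Ribosomal protein genes fell: 21 of 38 tested, or 55.3% against 12.6% of all genes, with a median log2 change of -1.15. rps24 had 20.9, 46.2 and 67.5 CPM at 4 DAP, against 163, 227 and 254 CPM at 2 DAP (log2 change -2.36 ± 0.39 (SE), adjusted p = 0.00302). rps6 had 1661, 2538 and 2747 CPM at 4 DAP, against 5380.0, 5824 and 7094 CPM at 2 DAP (log2 change -1.42 ± 0.32 (SE), adjusted p = 0.0128), a call lost without replicate 2 at 4 DAP, without replicate 3 at 2 DAP and under quantile normalization. The stages were apart in both genes, and replicate 1 was the lowest 4 DAP library for 37 of the 39 listed genes and the lowest 2 DAP library for 33. The count depended on the libraries and the scaling. It was 35 with the replicate block and also without both replicate 1 libraries, 10 under quantile normalization, 12 without replicate 1 at 4 DAP, 8 without replicate 2 of either stage, and 7 without replicate 3 at 2 DAP. rpp2 and rpp2a-2, of the acidic stalk proteins, fell by 1.41 and 1.35 on the log2 scale. The call of rpp2 was lost without replicate 1 or 2 at 4 DAP, without replicate 2 or 3 at 2 DAP, with no filter, after rescaling to equal totals, under quantile normalization, in the fit of all 18 libraries, in the fit of 15 libraries and by edgeR. The call of rpp2a-2 was lost without replicate 1 or 2 at 4 DAP, without replicate 2 or 3 at 2 DAP, after rescaling to equal totals and under quantile normalization. After rescaling to equal totals 9 fell and 1 rose, with a median log2 change of -0.76, to be read against the 0.29 of all genes.

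Among translation factors 0 of 13 tested genes rose and 2 fell. The counts became 1 and 11 with the replicate block, 0 and 1 after rescaling to equal totals or under quantile normalization, 1 and 2 without 4 DAP replicate 1, 0 and 1 without 4 DAP replicate 2 or 2 DAP replicate 1 or 3, and 0 to 1 rose and 2 to 10 fell over the other alternatives. The share that fell, 15.4%, was near the 12.6% of all genes. The genes that fell were eif7, which fell by 0.96, and EF-Ts, which fell by 0.77 on the log2 scale, a call lost without replicate 2 or 3 at 4 DAP, without replicate 1 or 3 at 2 DAP, after rescaling to equal totals and under quantile normalization. Of DNA replication genes, 0 of 16 tested genes rose and 4 fell. The counts became 1 and 8 with the replicate block, 1 and 1 after rescaling to equal totals, 1 and 4 without 4 DAP replicate 1, 0 and 2 without 2 DAP replicate 3, and 0 to 1 rose and 4 to 8 fell over the other alternatives. The median log2 change was -0.63. orc2, of the origin recognition complex, had 6.38, 11.6 and 8.08 CPM at 4 DAP, against 27.1, 21.2 and 17.7 CPM at 2 DAP (log2 change -1.26 ± 0.26 (SE), adjusted p = 0.00903), and the nuclease gene FEN1 fell by 1.06, RNRL2 by 0.92 and orc3 by 0.92 on the log2 scale. The fall of FEN1 was lost without replicate 3 at 2 DAP, and those of FEN1, RNRL2 and orc3 after rescaling to equal totals. RNRL2 was also lost without replicate 2 or 3 at 4 DAP and without replicate 1 or 3 at 2 DAP.

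Among cell cycle regulators 3 of 21 tested genes rose and 0 fell. The counts became 9 and 1 with the replicate block, 9 and 0 after rescaling to equal totals, 7 and 0 under quantile normalization, 1 and 0 without 4 DAP replicate 2, 2 and 1 without 2 DAP replicate 2, 6 and 0 without 2 DAP replicate 3, and 3 to 8 rose and 0 to 1 fell over the other alternatives. The share that rose, 14.3%, was near the 13.2% of all genes. Cyclin-SDS had 3.16, 7.41 and 4.78 CPM at 4 DAP, against 0.401, 0.314 and 0.930 CPM at 2 DAP (log2 change 1.94 ± 0.29 (SE), adjusted p = 0.00172). cenH3 (GRMZM2G157596), the centromeric histone, had 34.9, 50.2 and 75.1 CPM at 4 DAP, against 18.9, 25.1 and 23.7 CPM at 2 DAP (log2 change 1.15 ± 0.29 (SE), adjusted p = 0.0185), a call lost without replicate 2 or 3 at 4 DAP, and RBR2, of the retinoblastoma family, rose by 0.99 on the log2 scale, a call lost without replicate 1 or 2 at 4 DAP, without replicate 1, 2 or 3 at 2 DAP and without both replicate 1 libraries. No histone gene of 12 and no kinesin or phragmoplast gene of 11 was called by limma with the deposited normalization, all 6 libraries and no block. At an unadjusted p below 0.05 there were 0 histone and 3 kinesin genes, and edgeR and DESeq2 called 0 of either list. Other limma runs made calls. tan1 (tangled1, which acts in placing the division plane) was called higher with the replicate block (log2 change 1.12, adjusted p = 0.015), and in the kinesin list 3 rose after rescaling to equal totals and 1 without replicate 2 or 3 at 2 DAP. In the histone list 1 rose without replicate 1 at 2 DAP, 2 fell without replicate 3 at 2 DAP and 2 rose without both replicate 1 libraries. The histone median was -0.02, and 0.37 after rescaling to equal totals.

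Cell wall genes were called in both directions: 12 of 29 tested genes rose and 6 fell. The counts became 13 and 7 with the replicate block, and 10 to 13 rose and 3 to 7 fell over the other alternatives. Of 10 cellulose synthase genes tested 6 rose, among them CesA-4, with 6.39, 6.24 and 5.41 CPM at 4 DAP, against 0.535, 0.528 and 0.533 CPM at 2 DAP (log2 change 2.19 ± 0.19 (SE), adjusted p = 0.000116), and CesA-7, with 62.4, 48.0 and 56.6 CPM at 4 DAP, against 18.4, 13.4 and 19.5 CPM at 2 DAP (log2 change 1.66 ± 0.22 (SE), adjusted p = 0.00107). CesA-1, CesA-2, CesA-3 and CesA-8 rose by 0.93 to 1.80 on the log2 scale, with the call of CesA-3 lost without replicate 2 at 4 DAP and that of CesA-8 lost without replicate 1, 2 or 3 at 4 DAP, without replicate 1 or 2 at 2 DAP, by edgeR and without both replicate 1 libraries. The wall-loosening beta-expansin gene expB7 had 35.0, 112 and 71.0 CPM at 4 DAP, against 0.822, 3.81 and 3.55 CPM at 2 DAP (log2 change 4.28 ± 0.48 (SE), adjusted p = 0.000435). exg1, an exoglucanase gene, had 636, 694 and 774 CPM at 4 DAP, against 168, 156 and 254 CPM at 2 DAP (log2 change 1.89 ± 0.25 (SE), adjusted p = 0.00109). In both genes each 4 DAP library lay above all 2 DAP libraries. A cellulase gene, GRMZM2G453565, had 0.0966, 0.352 and 0.484 CPM at 4 DAP, against 17.4, 34.0 and 31.4 CPM at 2 DAP (log2 change -4.40 ± 0.29 (SE), adjusted p = 3.46e-05), and all 3 tested cellulase genes fell, although the call of GRMZM2G066162 was lost without replicate 2 or 3 at 2 DAP and in the fit of 15 libraries. HRGP (GRMZM2G168651), a hydroxyproline-rich wall glycoprotein, had 0.0439, 0.284 and 0.819 CPM at 4 DAP, against 5.12, 15.2 and 6.03 CPM at 2 DAP (log2 change -2.72 ± 0.38 (SE), adjusted p = 0.00126).

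In the tubulin and actin list, 5 of 22 tested genes rose (22.7%) and 2 fell (9.09%). The counts became 7 and 5 with the replicate block, 5 and 1 without 4 DAP replicate 2. TUB8 had 5.51, 17.3 and 6.19 CPM at 4 DAP, against 0 in each 2 DAP library, at least 275-fold higher, and tua5 had 114, 89.8 and 84.7 CPM at 4 DAP, against 12.1, 12.6 and 20.5 CPM at 2 DAP (log2 change 2.62 ± 0.25 (SE), adjusted p = 0.000211). tub3 fell, with 9.83, 11.9 and 7.04 CPM at 4 DAP, against 34.6, 33.2 and 51.3 CPM at 2 DAP (log2 change -1.94 ± 0.26 (SE), adjusted p = 0.0011). The stages were apart in all 3 of these genes, which for TUB8 followed from passing the filter through 4 DAP alone.

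Chaperones of the endoplasmic reticulum fold secreted proteins, and 6 of 23 tested genes rose and 1 fell. The counts became 9 and 1 with the replicate block, 11 and 0 after rescaling to equal totals, 5 and 0 without 4 DAP replicate 1, 2 and 0 without 4 DAP replicate 2 or 2 DAP replicate 2, 3 and 1 without 4 DAP replicate 3, 11 and 0 without 2 DAP replicate 3, and 6 to 9 rose and 0 to 1 fell over the other alternatives. Protein disulfide isomerase genes made up 5 of the rises, of 15 tested. PDIL1-2 had 40.4, 53.8 and 55.3 CPM at 4 DAP, against 3.93, 8.77 and 9.46 CPM at 2 DAP (log2 change 2.66 ± 0.31 (SE), adjusted p = 0.000524), and its call held in each run that left out 1 library. PDIL1-1 had 464, 553 and 518 CPM at 4 DAP, against 82.5, 126 and 317 CPM at 2 DAP (log2 change 1.77 ± 0.43 (SE), adjusted p = 0.0164), a call lost without replicate 2 at 4 DAP and without replicate 2 at 2 DAP. In the heat shock list 1 of 13 tested genes rose and 5 fell. The counts became 3 and 3 after rescaling to equal totals, 0 and 3 under quantile normalization, 1 and 3 without 4 DAP replicate 1 or 3, 0 and 3 without 4 DAP replicate 2 or 2 DAP replicate 3, 0 and 4 without 2 DAP replicate 1 or 2, and 0 to 1 rose and 4 to 6 fell over the other alternatives. hsp22, a small heat shock protein gene, had 3.21, 3.99 and 4.57 CPM at 4 DAP, against 45.3, 29.8 and 102 CPM at 2 DAP (log2 change -3.43 ± 0.39 (SE), adjusted p = 0.0005). hsp70-5 had 0.176, 0.325 and 0.546 CPM at 4 DAP, against 9.66, 9.08 and 25.3 CPM at 2 DAP (log2 change -3.40 ± 0.36 (SE), adjusted p = 0.000365). HSP18 had 0.00878, 0.0541 and 0 CPM at 4 DAP, against 1.74, 3.14 and 2.89 CPM at 2 DAP (log2 change -1.79 ± 0.19 (SE), adjusted p = 0.000381). No 4 DAP library of these 3 genes reached the 2 DAP range, which for hsp70-5 and HSP18 followed from passing the filter through 2 DAP alone.

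Potassium transport genes were called in both directions: 6 of 16 tested genes rose and 4 fell. HAK10, a potassium transporter gene, had 4.62, 7.61 and 5.41 CPM at 4 DAP, against 0.459, 0.485 and 0.374 CPM at 2 DAP (log2 change 2.23 ± 0.22 (SE), adjusted p = 0.000225), while HAK1 of the same family had 12, 10.7 and 16.1 CPM at 4 DAP, against 63.5, 56.6 and 80.4 CPM at 2 DAP (log2 change -2.29 ± 0.23 (SE), adjusted p = 0.00028). The channel gene ZMK1 had 0.193, 0.244 and 0 CPM at 4 DAP, against 17.4, 8.45 and 14.1 CPM at 2 DAP (log2 change -3.59 ± 0.27 (SE), adjusted p = 6.95e-05). Each was apart between the stages. That had to be so for HAK10, which passed the filter through 4 DAP alone, and for ZMK1, which passed through 2 DAP alone. Ann9 and Ann8, annexin genes of calcium-dependent membrane binding that lie side by side on chromosome 6, fell together. Ann9 had 0 CPM in each 4 DAP library, against 9.24, 12.8 and 14.6 CPM at 2 DAP, at least 352-fold lower at 4 DAP, and Ann8 had 0.0966, 1.49 and 0.968 CPM at 4 DAP, against 15.7, 17.9 and 18.8 CPM at 2 DAP (log2 change -3.40 ± 0.31 (SE), adjusted p = 0.000163). PMP3, a small membrane protein gene, had 0.553, 0.691 and 3.81 CPM at 4 DAP, against 17.6, 13.1 and 32.0 CPM at 2 DAP (log2 change -3.14 ± 0.47 (SE), adjusted p = 0.00182).

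In the amino acid list 4 of 20 tested genes rose and 5 fell. The counts became 5 and 8 with the replicate block, 5 and 3 after rescaling to equal totals, 4 and 3 without 4 DAP replicate 2 or 3 or 2 DAP replicate 1, and 3 to 5 rose and 3 to 8 fell over the other alternatives. Glutamine synthetase genes, which assimilate ammonium, went both ways: gln2 had 7.10, 6.09 and 7.28 CPM at 4 DAP, against 0.191, 0.799 and 0.227 CPM at 2 DAP (log2 change 2.50 ± 0.23 (SE), adjusted p = 0.000159), while gln4 had 0.694, 3.93 and 3.2 CPM at 4 DAP, against 9.53, 23.4 and 26.2 CPM at 2 DAP (log2 change -2.55 ± 0.47 (SE), adjusted p = 0.00507). gln5 and GLN6 fell by 2.28 and 2.36 on the log2 scale. lkrsdh1, the gene of the bifunctional enzyme of lysine breakdown, had 145, 159 and 189.8 CPM at 4 DAP, against 36.9, 31.5 and 25.1 CPM at 2 DAP (log2 change 2.37 ± 0.22 (SE), adjusted p = 0.000185). alt (GRMZM2G088064), an alanine aminotransferase gene, had 189, 196 and 154 CPM at 4 DAP, against 29.1, 41.7 and 46.3 CPM at 2 DAP (log2 change 2.19 ± 0.23 (SE), adjusted p = 0.000374).

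For the remaining lists, changes in brackets are on the log2 scale. In the MYB list 5 of 15 tested genes rose and 1 fell. The counts became 5 and 2 with the replicate block, 7 and 0 after rescaling to equal totals, 3 and 0 without 4 DAP replicate 1 or 3 or 2 DAP replicate 3, 2 and 0 without 4 DAP replicate 2, 4 and 0 without 2 DAP replicate 1, and 3 to 6 rose and 0 to 2 fell over the other alternatives. MYB83 had 1.2, 2.57 and 1.80 CPM at 4 DAP, against 0 in each 2 DAP library, and was at least 52.8-fold higher. In the NAC list 1 of 8 tested genes rose and 1 fell. The counts became 2 and 1 with the replicate block or after rescaling to equal totals, and 1 to 2 rose and 1 fell over the other alternatives. NAC61 rose (1.95) and NAC79 fell (GRMZM2G033884, -1.16). Of NF-Y genes 1 of 12 tested genes rose (8.33%, against 13.2% of all genes) and 0 fell. The counts became 3 and 1 with the replicate block, 3 and 0 after rescaling to equal totals, 2 and 0 without 4 DAP replicate 1, 1 and 2 without 2 DAP replicate 2, and 1 to 3 rose and 0 to 1 fell over the other alternatives. NF-YA7 was the one that rose (2.25). Of defence genes 6 of 15 tested genes rose and 0 fell. The counts became 9 and 0 with the replicate block, 3 and 0 under quantile normalization, 2 and 0 without 4 DAP replicate 2 or 3, 3 and 0 without 2 DAP replicate 1, 2 or 3, and 2 to 8 rose and 0 to 2 fell over the other alternatives. The benzoxazinoid glucosyltransferase gene bx8 (2.07) and gst37 (1.41) held in each run that left out 1 library. Of fatty acid genes 2 of 14 tested genes rose and 2 fell. The counts became 3 and 5 with the replicate block, 2 and 0 after rescaling to equal totals, 2 and 1 under quantile normalization, 2 and 1 without 4 DAP replicate 1 or 3 or 2 DAP replicate 1 or 2, 2 and 0 without 4 DAP replicate 2 or 2 DAP replicate 3, and 2 to 3 rose and 1 to 4 fell over the other alternatives. Both rises were in models named LC-FACS. The shares in the NAC list, 12.5% each way, and in the fatty acid list, 14.3% each way, were near those of all genes. Of 18 cell death and autophagy genes tested, 2 rose and 1 fell, shares of 11.1% and 5.56% that were no higher than those of all genes. The counts became 4 and 1 with the replicate block, 4 and 0 after rescaling to equal totals, 1 and 1 without 4 DAP replicate 2 or 3 or 2 DAP replicate 1 or 3, and 2 to 4 rose and 1 fell over the other alternatives. Here ccp1 and see1 rose and Atg4b fell (-0.94, a call lost after rescaling to equal totals), while of 4 aquaporin genes tested SIP2-1 rose (1.49). The aquaporin counts became 2 and 0 with the replicate block or after rescaling to equal totals, 2 and 0 without 4 DAP replicate 1, and 1 to 3 rose and 0 fell over the other alternatives. grp1, a glycine-rich protein gene outside the lists, had 1748, 1423 and 1113 CPM at 4 DAP, against 826, 864 and 671 CPM at 2 DAP (log2 change 0.84 ± 0.27 (SE), adjusted p = 0.0478), a call lost without replicate 1, 2 or 3 at 4 DAP, without replicate 1, 2 or 3 at 2 DAP, with no filter, in the fit of all 18 libraries and in the fit of 15 libraries. In the photosynthesis list 2 of 12 tested genes rose (16.7%, near the 13.2% of all genes) and 0 fell. The counts became 3 and 3 with the replicate block, 2 and 1 without 4 DAP replicate 2 or 2 DAP replicate 1 or 3, and 2 rose and 0 to 3 fell over the other alternatives. PPDK2 and Ppdk1 were those calls. With the replicate block limma also called fdx3 (log2 change -1.45, adjusted p = 0.000465), L-FNRI (log2 change -1.04, adjusted p = 0.0143) and OEE3 (log2 change -0.60, adjusted p = 0.0231) lower and FDX6 (log2 change 0.56, adjusted p = 0.022) higher, genes of ferredoxins, of the enzyme that reduces NADP from ferredoxin and of the oxygen-evolving complex. Among embryo regulators 2 of 9 tested genes rose and 1 fell. The counts became 2 and 3 with the replicate block, 4 and 1 after rescaling to equal totals, 2 and 2 under quantile normalization, 1 and 1 without 4 DAP replicate 3, 2 and 2 without 2 DAP replicate 1, and 2 rose and 1 to 3 fell over the other alternatives. The genes serk1 (1.88) and serk2 (1.01), receptor kinase genes, rose and ocl3 fell, with serk2 lost without replicate 3 at 4 DAP. That list summed to 113 to 145 CPM at 4 DAP, against 114 to 155 CPM at 2 DAP.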

How the data were processed

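RNA-seq libraries were made from laser-captured maize endosperm and embryo, 3 per group in 6 groups. Per the labels' protocols, RNA purified with PicoPure columns was primed with oligo(dT) and random oligonucleotides. The cDNA was amplified (Nugen Ovation) and made into paired-end libraries. Trimmomatic, TopHat2 2.0.9, bedtools 2.17.0 and edgeR, and the build B73 RefGen_v3, are named per the submitters' processing notes; the handling of strand, of reads with several matches and of normalization is not given in the sources used here. The deposited signal is a read count scaled to library depth (CPM), per the file headers, and its library totals differ. All values of each library were whole multiples, within 0.001 reads, of what 1 read is worth (100% of values), and reads were recovered from them.

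The 4 DAP libraries were compared with the 2 DAP libraries by limma 3.58.1 in R 4.3.3 on log2(CPM + 1) with trended empirical Bayes and Benjamini-Hochberg adjustment over the 25784 genes kept. Adjusted p-values and SE are from this fit unless another is named. Alternatives changed the pseudocount, the filter, the scaling, the libraries fitted and the tool (edgeR 4.0.16 quasi-likelihood and DESeq2 1.42.0 on recovered reads), added the replicate number as a block, or left out libraries. Same-numbered libraries deviated together: the correlations of their deviations from the stage means were 0.63, 0.354 and 0.361 for replicates 1, 2 and 3, against -0.502 to 0.255 for unlike numbers. Deviations within a stage sum to 0, so that positive values for like numbers push the unlike ones down. Replicate 2 at 4 DAP gave 0.354 with replicate 2 and 0.255 with replicate 3 at 2 DAP, so that these were scarcely told apart. The numbers were treated as pairs in the block. The correlation of log2(CPM + 1) was 0.951 to 0.986 within 4 DAP, 0.958 to 0.974 within 2 DAP and 0.862 to 0.922 between stages. Counts were also simulated with the mean levels and read totals of these libraries, the same dispersion for every gene and no effect of the replicate. In them the test recovered 45.1% of 2-fold and 100% of 4-fold changes. Genes with a wider spread, such as HP1, and the shared deviations of same-numbered libraries were not part of the simulation. These shares may therefore not hold for the real data.

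Of 38300 identifiers, 14444 matched the RefSeq gene table and 1969 of these had a name there. Gene order comes from that later assembly, and no sequence was used here. The comparison and the 43 gene lists were chosen with earlier results of these data known. Genes were picked for description among those with a name that were called without overlap. They had the 12 largest rises, the 12 largest falls or the 6 largest differences of means each way. Up to 4 called members of each list were picked as well. Not every gene picked in these ways is described above. Every measured member of the transfer layer, embryo-surrounding region, aleurone, Polycomb and cytokinin lists was followed too. Other named list members were chosen after their values were seen. The result for 1 gene is not reported here.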

Additional observations from a re-analysis of the deposited data

How the results depend on the processing

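The counts of genes that rose and fell, 3395 and 3247 by limma, kept within 1.5 times under other pseudocounts, no filter, quantile normalization, the fits of 15 and 18 libraries, a constant prior variance, edgeR and DESeq2. On recovered reads edgeR called 3202 higher and 2644 lower, and DESeq2 3983 and 3695. The counts moved further under 4 other settings and in 2 of the runs that left out 1 library. With at least 5 CPM in 3 libraries 1971 rose, of 14828 genes tested. After rescaling to equal totals 6293 rose and 1403 fell. With the replicate block 5167 rose and 5727 fell, and edgeR with the block called 4924 lower; the cause was not tested. Leaving out each library in turn gave 2074 to 3065 that rose and 1521 to 2806 that fell, with 2074 and 1521 without replicate 2 at 4 DAP and 1971 that fell without replicate 3 at 2 DAP. Of 616 genes followed singly, 256 were called, and 160 of these kept call and direction wherever they were tested; no called gene changed direction under any alternative run. Calls were lost most often without replicate 2 at 4 DAP, for 79 genes, and 32 were lost after rescaling. The replicate block removed no call among these genes and added 112, which are given above in the counts with the block, and it changed no other call described. A number of 3 libraries a stage, amplified RNA and an RNA quantification that differed between the stages limit the precision. In the simulation, which gave every gene the same dispersion and no effect of the replicate, 2-fold changes were recovered in 45.1% of cases.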
